A study of Mus musculus with 18 samples.

Results

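Rpl35a, Rpl24, Fau, Eif4a2, Eif4g1, Gspt1 and Psmd2 are 7 genes of protein synthesis and protein breakdown, and they were read here in MC3T3-E1 cells, a preosteoblast line from mouse calvaria. They were chosen by symbol, are 7 of the 40620 rows of the count table, and all 7 were among the 12930 rows with enough counts to test. Cells carried 1 of 3 stable lentiviral hairpins, shRcor2-18 or shRcor2-20 against the corepressor Rcor2, labelled as knockdown, or shScramble, labelled WT, and were sampled at 0h, 24h and 7d of differentiation in medium with dexamethasone, ascorbic acid and beta-glycerophosphate. The study asked what silencing Rcor2 does to preosteoblasts as they differentiate, with 2 samples for each construct and time, or 18 libraries in 9 groups. Sample 1 of each construct at 0h was left out, since pseudogene rows held a far smaller share of their counts than in the other 15 libraries, so that each construct had 1 library at 0h and 2 at 24h and at 7d. Nothing in the labels says that samples of a group were separate cultures or that hairpin cells were cloned, so the p-values describe variation among these libraries alone, and that variation may be technical. The 7d time comes from the sample titles, while the protocol names 24 hours and later days, and 7d is not among them.

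Ribosomal proteins and ribosomal RNA form the subunits that translate mRNA. Initiation factors unwind the mRNA and bring the small subunit to it, release factors free the finished chain at a stop codon, and the 26S proteasome degrades proteins marked with ubiquitin. Osteoblasts make and secrete large amounts of matrix protein, and in mammals many mRNAs of the translation machinery begin with a run of C and T bases, the 5' terminal oligopyrimidine tract, through which mTOR controls how well they are translated.

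Listed starts of the 7 genes are shown because a long run of C and T bases covers that of Fau and 1 of Rpl35a. Whether such a run is seen depends on which start is listed, and starts not listed were not read. Each line gives 50 bases of RefSeq's promoter table on GRCm38.p6, 5' to 3' on the gene's strand, from 20 bases before the first transcribed base to 30 bases from it on. Capitals mark the motif CTTCCTCTTTC.
Fau, chr19:6057927-6057976, plus strand: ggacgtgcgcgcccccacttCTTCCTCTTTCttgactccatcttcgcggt
Rpl35a, start 2, chr16:33056462-33056511, plus strand: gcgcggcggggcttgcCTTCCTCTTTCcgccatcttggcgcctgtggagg
Rpl24, chr16:55966255-55966304, plus strand: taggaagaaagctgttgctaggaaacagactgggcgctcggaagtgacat
Eif4a2, chr16:23107448-23107497, plus strand: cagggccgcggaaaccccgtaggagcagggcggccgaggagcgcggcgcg
Eif4g1, chr16:20672707-20672756, plus strand: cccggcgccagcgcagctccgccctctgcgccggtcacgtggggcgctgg
Gspt1, chr16:11254296-11254345, minus strand: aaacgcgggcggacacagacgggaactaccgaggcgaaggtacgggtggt
Psmd2, chr16:20651632-20651681, plus strand: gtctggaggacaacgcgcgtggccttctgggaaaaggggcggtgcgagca

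The run of C and T bases over the first transcribed base was 16 bases long in Fau and 13 in start 2 of Rpl35a, and 0 in the windows shown of the other 5 genes. The other 2 starts listed for Rpl35a had runs of 4 and 0. Runs of at least 10 such bases were found in 2.37% of the 32851 mouse promoters of the table and in 18.3% of its 71 ribosomal protein promoters. The motif, chosen after these starts were read, is the longest run of letters that the window of Fau shares with one of Rpl35a. Its presence in both genes was thus set by the choice and is no result. It stood on the gene's strand in 38 promoters of 300 bases (0.116%) and on either strand in 74 (0.225%). These include the promoters of Fau and of each listed start of Rpl35a. Absence of these letters from a window says nothing of a gene's regulation, and the coordinates place the gene in the reference build, not the reads, which the submitters' notes place on mm9.

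The row names of this table match the reads only in certain stretches, as an earlier analysis of these data found, and all 7 genes lie in them: Mefv to Cbr3 on chromosome 16, with 610 coding rows, and Ighmbp2 to Gpha2 on chromosome 19, with 134. Among genes of 4 families made in nearly all cells (ribosomal proteins, mitochondrial ribosomal proteins, initiation factors, proteasome), 8 of the 9 non-members inside the stretches had a mean of 20 CPM (counts scaled to a common library total) or more, against 51 of 258 (19.8%) outside. The 15 libraries held 3504808 to 6139315 counts, of which the 7 genes took 0.730% to 0.956%. The row named Rcor2 lies outside the stretches, at 201 to 265 CPM in the 10 hairpin libraries and 202 to 242 CPM in the 5 shScramble libraries, and does not check the constructs. Osteoblast markers lie outside as well, so the labelled cell type was not checked. The adipocyte marker Adipoq had at most 0.647 CPM and the endothelial marker Cldn5 0. At 24h and 7d, 11 of the 12 libraries correlated best over all rows with a library of another construct rather than of their own. Only libraries of the same time were compared. Each library thus had fewer candidates of its own construct than of others, and the count expected from that alone was not computed.

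Levels compared between genes are CPM divided by the length of the coding transcript, in kilobases. On that scale the order was led by Fau, whose product joins a ubiquitin-like peptide to the small-subunit ribosomal protein eS30, at 4509 ± 663 CPM per kilobase (SD over 15 libraries). Rpl35a, the large-subunit protein eL33, followed at 2134 ± 385, and Rpl24, the large-subunit protein eL24, at 640 ± 112. Eif4g1, the scaffold that holds the cap-binding complex together, was at 429 ± 82.2, and Eif4a2, an RNA helicase of that complex, at 378 ± 77.8. The lowest levels were those of Psmd2, the non-ATPase subunit Rpn1 of the proteasome cap, at 273 ± 47.6, and Gspt1, the termination factor eRF3a, at 194 ± 21.2 CPM per kilobase. Fau, Rpl35a and Rpl24 did not overlap one another in any library. From Rpl24 down the ranges of neighbours overlapped, and Eif4g1 was above Eif4a2 in 10 of 15 libraries. Psmd2 was above Gspt1 in each of the 15. The order is that of the libraries used, and may differ in those left out, where it was not computed. In CPM without TMM, Rpl24 had 213 to 240 in the libraries left out, against at least 355 in those used. Eif4g1 had 4129 to 5662 CPM there, against at most 3642 in those used.

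**Figure D1:**
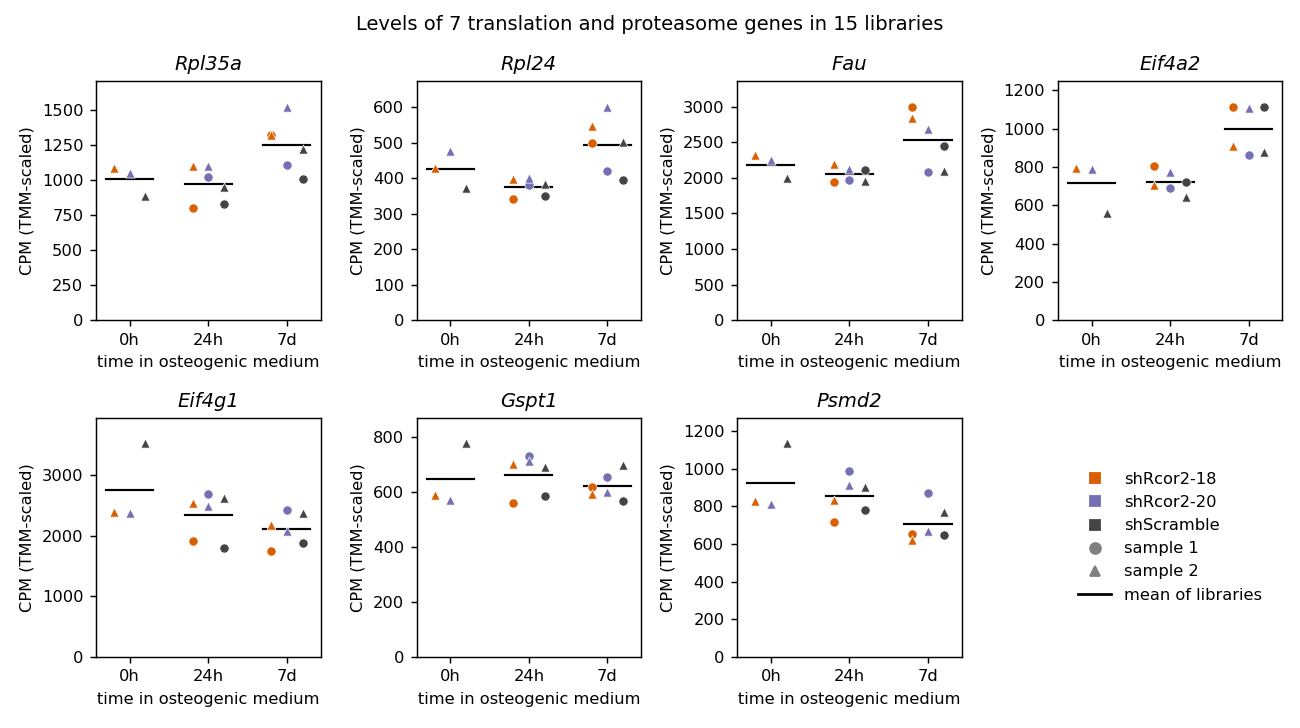
CPM after TMM scaling (vertical axes, from 0) of each gene in the 15 libraries at 0h, 24h and 7d, with colours for the construct, shapes for the sample number and a black line at the mean of the libraries of a time. Eif4a2 at 7d lies wholly above 24h, and the shScramble library at 0h stands above both hairpin libraries in Eif4g1, Gspt1 and Psmd2.

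The 3 ribosomal protein genes had their highest means at 7d. In RNA from whole cultures, a difference in the mix of cells and one in RNA per cell cannot be told apart. Rpl35a had 1086 CPM in shRcor2-18, 1047 in shRcor2-20 and 887 in shScramble at 0h. At 24h its lowest, median and highest libraries had 803, 987 and 1102 CPM, and at 7d 1005, 1273 and 1522 CPM. The times overlapped, since the shScramble sample 1 and shRcor2-20 sample 1 libraries at 7d lay among or just above those at 24h. Rpl24 had 430 CPM in shRcor2-18, 476 in shRcor2-20 and 372 in shScramble at 0h. It had 342, 381 and 400 CPM (lowest, median and highest) at 24h and 395, 500 and 602 CPM at 7d. Of the 6 libraries at 7d, 5 were above all those at 24h, and shScramble sample 1 fell inside the range at 24h.

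Fau had 2320 CPM in shRcor2-18, 2247 in shRcor2-20 and 1991 in shScramble at 0h. Its lowest, median and highest libraries had 1937, 2041 and 2199 CPM at 24h and 2080, 2566 and 3001 CPM at 7d. Both shRcor2-18 libraries at 7d, with 3001 and 2837 CPM, were above all other libraries, while shScramble sample 2 and shRcor2-20 sample 1 stayed inside the range at 24h. Between 7d and 24h the log2 fold change was 0.39 ± 0.11 for Rpl24 (SE; edgeR adjusted p = 0.102), 0.37 ± 0.12 for Rpl35a (edgeR adjusted p = 0.139) and 0.29 ± 0.085 for Fau (edgeR adjusted p = 0.117). None of the 3 passed the threshold of 0.05 over all 12930 rows. Each was higher at 7d in 6 of 6 pairs of the same construct and sample number. The labels do not say that such libraries belong together, and the share of all rows with 6 of 6 was not counted. With a replicate block for the sample number across constructs, Rpl24 passed at 0.39 (edgeR adjusted p = 0.0397), and it did not with similar libraries summed across constructs (edgeR adjusted p = 0.256, and 0.166 with the sum as a block).

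Of the initiation factors, Eif4a2 had its highest mean at 7d and Eif4g1 its lowest. Eif4a2 had 795 CPM in shRcor2-18, 788 in shRcor2-20 and 559 in shScramble at 0h. At 24h its lowest, median and highest libraries had 645, 714 and 806 CPM, and at 7d 864, 1010 and 1115 CPM. All 6 libraries at 7d were above all 9 earlier ones. The share of all rows that separate in this way was not counted. The log2 fold change was 0.47 ± 0.10 at 7d against 24h (edgeR adjusted p = 0.0622, unadjusted p = 0.00195) and 0.50 ± 0.13 at 7d against 0h (edgeR adjusted p = 0.0638), both just short of the threshold. With a replicate block for the sample number inside each construct, the difference from 24h was 0.46 and passed (edgeR adjusted p = 0.0415). Small nucleolar RNAs and part of Rfc4 overlap Eif4a2, with rows at 22.3 to 46.8 CPM, and the treatment of strand is not given in the sources used here.

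Eif4g1 had its highest mean and its largest spread at 0h. It had 2385 CPM in shRcor2-18, 2368 in shRcor2-20 and 3523 in shScramble at 0h. Its lowest, median and highest libraries had 1791, 2512 and 2680 CPM at 24h and 1748, 2124 and 2426 CPM at 7d. At 24h the 1791 CPM of shScramble sample 1 and the 1917 CPM of shRcor2-18 sample 1 stood below the other 4 libraries, and the same samples were lowest at 7d, with 1884 and 1748 CPM. The log2 fold change was -0.14 ± 0.13 at 7d against 24h (edgeR adjusted p = 0.653) and -0.36 ± 0.16 against 0h (edgeR adjusted p = 0.249).

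Gspt1 differed least between libraries, with an SD of log2 CPM of 0.155 over the 15 libraries, against 0.293 for Eif4a2 and medians of 0.245 for genes of the stretches and 0.541 for all rows tested. It had 590 CPM in shRcor2-18, 570 in shRcor2-20 and 776 in shScramble at 0h. At 24h its lowest, median and highest libraries had 558, 696 and 729 CPM, and at 7d 568, 609 and 698 CPM. The times overlapped, and the log2 fold change was -0.089 ± 0.089 at 7d against 24h (edgeR adjusted p = 0.685).

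Psmd2, the proteasome gene, had its lowest mean at 7d. At 0h it had 825 CPM in shRcor2-18, 812 in shRcor2-20 and 1134 in shScramble. Its lowest, median and highest libraries had 717, 866 and 986 CPM at 24h and 623, 659 and 871 CPM at 7d. It was lower at 7d in 6 of 6 pairs by construct and sample number, by -0.14 to -0.45 on the log2 scale. The ranges overlapped, and the share of all rows with 6 of 6 was not counted. The log2 fold change was -0.28 ± 0.093 at 7d against 24h (edgeR adjusted p = 0.166) and -0.38 ± 0.11 at 7d against 0h (edgeR adjusted p = 0.0987), short of the threshold in both. Psmd2 and Eif4g1 are next to each other on chromosome 16.

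**Figure D2:**
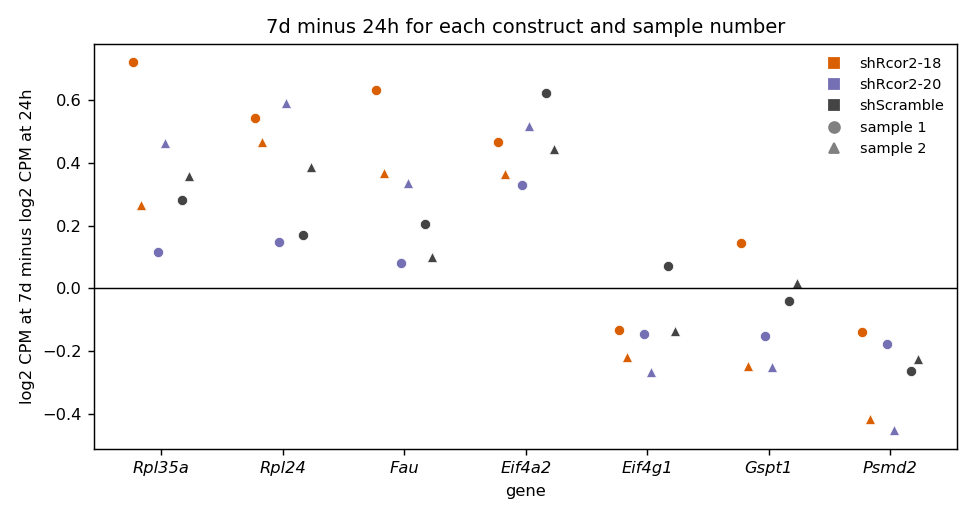
Log2 CPM at 7d minus log2 CPM at 24h (vertical axis) for each gene in the 6 pairs of libraries with the same construct and sample number. All 6 points lie above 0 for Rpl35a, Rpl24, Fau and Eif4a2 and all 6 below 0 for Psmd2, while Eif4g1 has 5 points and Gspt1 4 points below 0. The labels do not say that libraries with the same sample number belong together.

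At 7d against 24h, 0 of the 7 genes passed edgeR's test, where 2.34% of all rows and 4.5% of the 489 coding genes tested in the stretches did. Of the 7, 5 had an unadjusted p under 0.05, against 17.8% of all rows, and DESeq2 called 4 of them higher (Eif4a2, Fau, Rpl24 and Rpl35a) and 0 lower, where it called 4.59% of its rows higher and 4.25% lower. The median log2 fold change of the 7 was 0.29, against -0.021 over all rows. No gene passed either of the tests with similar libraries summed across constructs, where Eif4a2 was at 0.48 (edgeR adjusted p = 0.184) and 0 rows of the table were called.

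**Figure D3:**
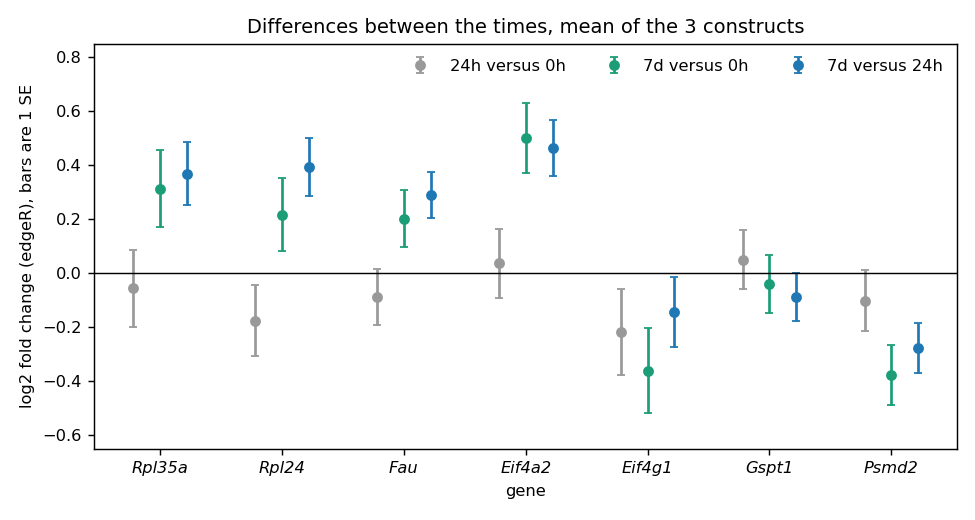
Log2 fold change of each gene between times (vertical axis, mean of the 3 constructs) from edgeR, with bars of 1 SE. The values at 7d lie above 0 for Rpl35a, Rpl24, Fau and Eif4a2 against both earlier times and below 0 for Eif4g1, Gspt1 and Psmd2, and those of 24h against 0h lie between -0.22 and 0.050.

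At 7d against 0h, 0 of the 7 passed edgeR's test, where 5.76% of all rows and 11.9% of the 489 coding genes tested in the stretches did. Eif4a2 and Psmd2 had an unadjusted p under 0.05, as did 20.5% of all rows, and DESeq2 called Eif4a2 higher and Psmd2 lower, where it called 6.83% of its rows higher and 5.21% lower. The other log2 fold changes were 0.31 ± 0.14 for Rpl35a, 0.22 ± 0.13 for Rpl24, 0.20 ± 0.11 for Fau and -0.040 ± 0.11 for Gspt1 (edgeR adjusted p = 0.267 to 0.927). Some values against 0h rest in part on its 1 shScramble library. Without it, Eif4a2 was at 0.34, Eif4g1 at -0.18, Gspt1 at 0.087 and Psmd2 at -0.23. Rpl35a, Rpl24 and Fau were then at 0.305, 0.19 and 0.21. Without shRcor2-20 sample 2 at 7d, Rpl24 was at 0.13. The median of the 7 was 0.20, against 0.068 over all rows.

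At 24h against 0h the 7 genes lay close to 0, from -0.22 ± 0.16 for Eif4g1 to 0.050 ± 0.11 for Gspt1 on the log2 scale. With edgeR 0 passed, where 1.86% of all rows and 2.66% of the 489 coding genes tested in the stretches did. An unadjusted p under 0.05 was found for 0 of the 7 and for 11.5% of all rows. DESeq2 called 0, where it called 5.06% of its rows. The lowest edgeR adjusted p was 0.703, and the median of the 7 was -0.089, against 0.059 over all rows.

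The hairpins gave no call among the 7 genes. Averaged over the times, hairpins minus shScramble came to 0.23 ± 0.12 for Rpl35a, 0.21 ± 0.11 for Eif4a2, 0.18 ± 0.11 for Rpl24 and 0.14 ± 0.086 for Fau on the log2 scale. The differences were -0.16 ± 0.13 for Eif4g1, -0.15 ± 0.092 for Psmd2 and -0.13 ± 0.088 for Gspt1 (edgeR adjusted p = 0.792 or more for all 7). With edgeR 0 of the 7 passed, where 0.00773% of all rows did, 0 had an unadjusted p under 0.05, as 6.49% of all rows did, and DESeq2 called 0, where it called 0.998% of its rows. Some of these values rest on the shScramble library at 0h. Without it, which leaves 24h and 7d, Eif4a2 was at 0.062, Eif4g1 at 0.051, Gspt1 at 0.022 and Psmd2 at 0.006. Rpl35a, Rpl24 and Fau were then at 0.21, 0.13 and 0.11. At single times edgeR called 0 of the 7, where it called 0.155% of all rows at 0h, 0.0155% at 24h and 0.0387% at 7d. DESeq2 called 0 of the 7 as well, where it called 1.64%, 0.3% and 0.162% of its rows at 0h, 24h and 7d. For shRcor2-18 alone and shRcor2-20 alone, over all times, 0 of the 7 passed with either tool, where edgeR called 0.101% and 0.0387% of all rows and DESeq2 0.736% and 0.656%. The change between 7d and 24h in hairpins minus that in shScramble gave 0 calls among the 7 with either tool, where edgeR called 0.0541% of all rows and DESeq2 0.255%. In these 6 comparisons the only unadjusted p under 0.05 was that of Psmd2 at 0h, as in 7.5% of all rows there, where 1 shScramble library stands against 2 hairpin libraries.

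The same construct at the same time did not always give the same level in both samples. At 7d Rpl35a had 1105 and 1522 CPM in shRcor2-20 cells, and 1005 and 1223 CPM in shScramble cells. Both shRcor2-18 libraries had 1323 CPM. Rpl24 at 7d had 421 and 602 CPM in shRcor2-20 cells, against 395 and 501 CPM in shScramble cells. The samples of each of these constructs differed by more than the constructs' means of 511 and 448 CPM. In shRcor2-18 cells Rpl24 had 498 and 548 CPM.

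Across the 15 libraries the genes fell into sets that varied together, as a description over libraries that share times and constructs. Pearson's r of log2 CPM was 0.93 between Rpl35a and Rpl24 and ran from 0.64 to 0.93 among Rpl35a, Rpl24, Fau and Eif4a2. Among Eif4g1, Gspt1 and Psmd2 it ran from 0.77 to 0.86. Between these sets all 12 values were below 0, from -0.86 for Eif4a2 with Psmd2 to -0.029 for Rpl35a with Gspt1. CPM are shares of a total, and the sets were drawn after the values were seen.

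**Figure D4:**
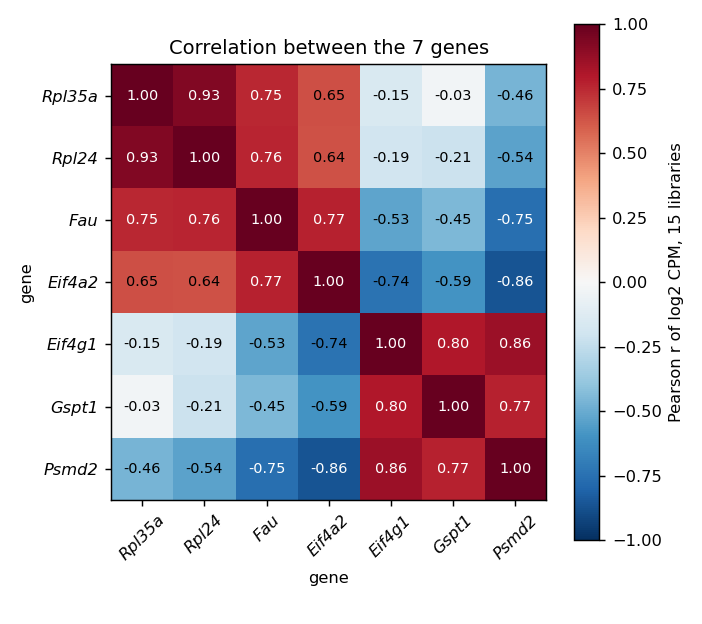
Pearson's r of log2 CPM over 15 libraries for each pair of the 7 genes (both axes list the genes, colour runs from -1 to 1). Rpl35a, Rpl24, Fau and Eif4a2 form a block of values from 0.64 to 0.93, Eif4g1, Gspt1 and Psmd2 one from 0.77 to 0.86, and the values between the blocks are negative.

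The summed CPM of Rpl35a, Rpl24 and Fau divided by that of Eif4g1, Gspt1 and Psmd2 gives 1 value per library. Eif4a2 was left out of it. Its genes were grouped after the values were seen, so the ratio is a description and tests nothing. The ratio averaged 0.871 ± 0.236 at 0h (SD, n = 3), 0.892 ± 0.107 at 24h and 1.26 ± 0.267 at 7d (SD, n = 6 each). At 7d it was 1.60 and 1.39 in shRcor2-18 cells, 0.912 and 1.44 in shRcor2-20 cells, and 1.24 and 0.994 in shScramble cells. The libraries at 7d overlapped those at 24h, which ran from 0.766 to 1.05.

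Among 415 other genes of the stretches with a mean of at least 20 CPM, those most like each member over the 15 libraries were picked by Pearson's r of log2 CPM. Eif4g1 was most like Cdc45 (r = 0.94) and Mcm4 (r = 0.94), both parts of the replicative helicase. Psmd2 was most like Cdca5 (r = 0.92), the cohesin protector sororin, and Polq (r = 0.91), a DNA repair polymerase. Gspt1 was most like Umps (r = 0.88), an enzyme of pyrimidine synthesis, and Ccdc14 (r = 0.87). Eif4a2 was most like Carns1 (r = 0.93), which makes carnosine, and Paxbp1 (r = 0.88), and Carns1 was also nearest to Fau (r = 0.80). After Rpl24, Rpl35a was most like Qtrtd1 and Tfap4 (r = 0.85 each), and after Rpl35a, Rpl24 was most like Ypel1 and Robo2 (r = 0.85 and 0.84).

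Other genes of translation and of ubiquitin handling in the stretches numbered 27, of which 26 had enough counts to test. At 7d against 24h edgeR called 0 of the 26, where it called 2.34% of all rows and 4.5% of the 489 coding genes tested in the stretches, so that a count of 0 is near the background. Their median log2 fold change was 0.044. The 6 mitochondrial ribosomal proteins, such as Mrpl11 and Mrps6, had 0 calls in any of the 3 comparisons of times, where 1.86%, 5.76% and 2.34% of all rows were called (24h against 0h, 7d against 0h and 7d against 24h). Likewise 0 calls were made for the initiation factors Eif2b5 and Eif1ad, the ribosome biogenesis factor Rsl1d1 and the mitochondrial tyrosyl-tRNA synthetase Yars2. Cblb, a ubiquitin ligase, rose and was the 1 call of the 26. It averaged 90.1 ± 15.3 CPM at 0h (SD, n = 3), 173 ± 10.2 CPM at 24h and 197 ± 19.02 CPM at 7d (SD, n = 6 each), with log2 fold changes of 0.95 ± 0.11 at 24h against 0h (edgeR adjusted p = 0.00423) and 1.14 ± 0.11 at 7d against 0h (edgeR adjusted p = 0.00121). The difference between 24h and 0h did not pass with the block for sample number inside constructs (0.98, edgeR adjusted p = 0.0604), and with all 18 libraries neither passed (0.51 and 0.72, edgeR adjusted p = 0.190 and 0.0544). The ribosomal protein paralogue Rpl39l, in the same stretch as Rpl35a, was at 0.0314 CPM and was not tested.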

How the data were processed

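The authors deposited 1 table of raw counts per gene, whole numbers for 18 libraries of MC3T3-E1 cells. The submitters' processing notes list FastQC, TopHat2 2.0.9, DESeq and DESeq2 as tools and mm9 as the build. How reads were counted, on which strand, and what became of reads with several matching places is not given in the sources used here. Ribosomal protein genes have many pseudogenes, so levels of Rpl35a, Rpl24 and Fau are uncertain where such reads were split or dropped.

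Groups came from the sample titles. Testing used edgeR's quasi-likelihood F test (edgeR 4.0.16, R 4.3.3, with filterByExpr, TMM and robust dispersions) on all rows and 15 libraries, with 9 group means, 6 residual degrees of freedom and Benjamini-Hochberg adjustment at 0.05; the 1 library of each group at 0h was assumed to vary like the other groups. Standard errors are the log2 fold change over the square root of F. Comparisons of times average over the 3 constructs. CPM are scaled by TMM, except those of the Rcor2, marker and neighbouring rows, of Rpl39l and of the 18 libraries, which are scaled to library totals alone. Lengths are medians of basic coding transcripts of GENCODE vM21, matched by gene ID, for 7 of 7 genes. The script was tested on simulated data. Alternatives were other scalings, filters, DESeq2 1.42.0, all 18 libraries, the stretches alone, replicate blocks and leaving out each library.

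Deviations of same-numbered libraries of a construct correlated between 24h and 7d at 0.03 to 0.06 over 12930 rows. Over 416 coding genes of the stretches they correlated at 0.47 to 0.52. Within a construct the sample numbers gave identical values, so these are not independent of each other. Nearest libraries also recurred. At 24h and at 7d, shScramble sample 1 and shRcor2-18 sample 1 correlated best with each other, as did sample 2 of shRcor2-18 and of shRcor2-20. At both times shScramble sample 2 correlated best with shRcor2-20 sample 1, which at 24h was itself closest to its own construct. Sample numbers thus went with a likeness that lasted from 24h to 7d. These values do not say whether same-numbered libraries came from the same culture. Both ranges of correlation were read with the blocked results known. The members, gene lists, stretches, motif and transcript lengths were chosen with earlier results of these data known. All 7 members are named, with list genes past the threshold between times and the genes most like each member. Differences of single members are given for 4 of the 10 comparisons, a choice made after their alternatives were seen, and the other 6 are given as counts.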

Additional observations from a re-analysis of the deposited data

How the results depend on the processing

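Each member's values were recomputed under 27 alternatives at 7d against 24h and under 24 for the other comparisons. None of the 7 genes changed sign at 7d against 24h, and at 7d against 0h Gspt1 did. Each gene had at least 548 counts in every library, so the precision of these values is set mainly by the 15 libraries and their 6 residual degrees of freedom. At 7d against 24h, 1 member passed as higher with no filter on low counts (1.25% of 26456 rows called), 1 with at least 10 counts in every library (7.9% of 6999), 4 with DESeq2 (8.84% of 12178) and 2 in the stretches alone (17% of 489), where 1 passed as lower (Psmd2). Eif4a2 was among those higher in each. At 7d against 0h, 1 passed as higher (Eif4a2) with no filter (2.51% of rows called), with at least 10 counts (11.3%), with DESeq2 (12%) and in the stretches alone (24.9%), and 1 as lower (Psmd2) with DESeq2, with all 18 libraries (6.98%) and in the stretches alone. Psmd2 was then at -0.95 with all 18 libraries (edgeR adjusted p = 0.0465). Leaving out each library in turn gave 0 calls among the 7 genes in all 10 comparisons, and so did the fit to 24h and 7d alone, chosen after the data were seen, in the comparisons it allows.

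At 24h against 0h the sign changed with all 18 libraries for Rpl35a (0.43), Rpl24 (0.19), Fau (0.093), Eif4a2 (-0.23) and Gspt1 (-0.50). Leaving out 1 library at a time gave values of both signs for Rpl35a (-0.14 to 0.014), Eif4a2 (-0.091 to 0.11), Eif4g1 (-0.39 to 0.013), Gspt1 (-0.096 to 0.22) and Psmd2 (-0.26 to 0.066). Without the shScramble library at 0h, Eif4a2 was at -0.091, Eif4g1 at 0.013 and Psmd2 at 0.066. At 7d against 0h Gspt1 ran from -0.13 to 0.087, the highest without the shScramble library at 0h, and was at 0.008 without shScramble sample 1 at 7d. For hairpins against shScramble over all times, Eif4g1, Gspt1 and Psmd2 were at 0.056, 0.038 and 0.019 with all 18 libraries. Leaving out 1 library at a time they ran from -0.24 to 0.051, from -0.17 to 0.022 and from -0.19 to 0.006, each highest without the shScramble library at 0h.

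With sample number within constructs as a replicate block (3 residual degrees of freedom), 1 member passed at 7d against 24h, Eif4a2 (1.31% of rows called), and with the block across constructs (5 residual degrees of freedom) 1, Rpl24 (3.16% of rows called). Under the blocks within and across constructs, Rpl35a was at 0.065 and 0.065 at 24h against 0h, Eif4a2 at -0.004 and -0.002, and Gspt1 at 7d against 0h at 0.012 and 0.015. Rows called under the block within constructs were 56 at 24h against 0h, 432 at 7d against 0h and 169 at 7d against 24h. For hairpins they were 0 over all times, at 0h, at 7d and for either hairpin alone, and 1 at 24h and for the change between 7d and 24h. Under the block across constructs they were 12 for hairpins at 0h, 7 for shRcor2-18 and 0 for shRcor2-20. With libraries summed, with or without the sum as a replicate block, 0 rows passed. The blocks changed no other call among the 7 genes.

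The count of all rows called moved more. DESeq2 called 578 at 24h against 0h, 1406 at 7d against 0h and 1076 at 7d against 24h. It called 109 for hairpins over all times, 146 at 0h, 29 at 24h, 21 at 7d, 73 for shRcor2-18, 70 for shRcor2-20 and 33 for the change between 7d and 24h. In the stretches alone, with fewer rows tested, the counts were 28, 122 and 83 for the 3 comparisons of times and 0 for all 7 of hairpins. With all 18 libraries they were 38 at 7d against 24h and 0 for all 7 of hairpins. With at least 10 counts in every library they were 553 at 7d against 24h, 0 for hairpins over all times, at 24h, for shRcor2-20 and for the change between 7d and 24h, 1 at 0h and at 7d, and 3 for shRcor2-18. With no filter they were 20 for hairpins over all times, 41 at 0h, 4 at 24h, 20 for shRcor2-18 and 18 for shRcor2-20, and by library size alone 8 over all times. The cause of these shifts was not tested. Leaving out each library gave 126 to 231 rows at 24h against 0h, 310 to 762 at 7d against 0h and 120 to 307 at 7d against 24h. For hairpins it gave 0 to 14 over all times, 9 to 24 at 0h, 2 to 12 at 24h, 5 to 15 at 7d, 8 to 19 for shRcor2-18, 0 to 8 for shRcor2-20 and 4 to 11 for the change between 7d and 24h.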

Other observations

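The 3 libraries left out, sample 1 of each construct at 0h, held the 7 genes at other levels than the 3 libraries used at 0h. In CPM without TMM, Rpl35a ran from 397 to 433 CPM in the libraries left out and from 917 to 1071 CPM in the 3 used at 0h. Rpl24 ran from 213 to 240 CPM against 384 to 472 CPM, and Fau from 1537 to 1639 CPM against 2059 to 2288 CPM. The other 4 genes were higher in the libraries left out. Eif4g1 ran from 4129 to 5662 CPM against 2347 to 3642 CPM in those used at 0h, Gspt1 from 1078 to 1302 CPM against 565 to 803 CPM, Psmd2 from 1601 to 1918 CPM against 805 to 1173 CPM, and Eif4a2 from 910 to 977 CPM against 578 to 784 CPM. No range of the 7 genes overlapped between the libraries left out and those used at 0h. The share of all rows that do the same was not counted. Over all 15 used, Eif4a2 ran from 578 to 1134 CPM, which covers the libraries left out. Pseudogene rows took 6.38% to 6.50% of the counts that fell between the ends of the stretches in the 3 libraries left out, against 15.8% to 21.2% in the 15 used. Its part in the differences of the 7 genes was not tested.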
